A study of Mus musculus with 6 samples.

Results

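The endoplasmic reticulum (ER) chaperones and targets of the transcription factor XBP1 described here are 10 genes, Xbp1, Hspa5, Hsp90b1, Dnajb9, Sdf2l1, Pdia4, Calr, Canx, Herpud1 and Edem1, found by their symbols among the 40481 genes of the deposited table. Their mRNA was read by RNA-Seq in mouse liver, in 3 control pools and 3 Mttp-IKO pools, and the question was whether loss of chylomicron assembly in the intestine moved hepatic ER folding genes. None of the 10 genes passed the test used, at 3 pools against 3. Calr had the lowest p of the 10, at a fold of 0.689 (95% interval 0.500 to 0.951) in Mttp-IKO liver, without passing adjustment, and Sdf2l1 had a like fold, 0.684, with a wider interval (0.3597 to 1.30). Xbp1 and Herpud1 stood higher in Mttp-IKO liver, at folds of 1.38 and 1.28, with intervals that include no change.

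All pools came from male C57BL/6 mice kept for 3 weeks on the MCD diet, which lacks methionine and choline, and fasted for 4 h before liver was taken. The animals, 12 to 16 weeks old, carried Mttp f/f and Villin Cre ERT2, in which tamoxifen switches on a Cre recombinase driven by the Villin promoter and so deletes Mttp in the intestinal epithelium. The Mttp-IKO mice had received tamoxifen for 5 days and their control littermates vehicle, with the diet begun 3 weeks later. The labels call the control pools wild type, whereas the study's methods describe floxed, Cre-bearing littermates given vehicle, so genotype and tamoxifen exposure cannot be told apart. By the study's methods each pool mixed liver RNA of 3 to 4 mice, whereas the series' design text gives 12 livers without saying whether these are per genotype. Either way animals were pooled, which makes the pool the replicate, and the variation among single mice was not measured. No chow-fed liver was part of the comparison, and every value below belongs to MCD-fed animals.

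The ER folds and glycosylates secreted and membrane proteins, and hepatocytes, which make most plasma proteins and lipoproteins, depend on it heavily. When unfolded proteins build up, the sensors IRE1, ATF6 and PERK start the unfolded protein response. IRE1 cuts a short intron out of Xbp1 mRNA, and the spliced mRNA encodes an active factor that, with cleaved ATF6, raises transcription of chaperones, disulfide isomerases and degradation factors. In liver this response is tied to lipid handling, since XBP1 also acts on lipid synthesis genes, and MTTP itself works in the ER lumen as a heterodimer with the disulfide isomerase P4HB.

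Promoter sequence was read first, because the ER stress response element (ERSE) is the DNA site through which ATF6 and XBP1 act on several of these genes. The ERSE was searched as CCAAT and CCACG separated by 9 bases, ERSE-II as ATTGG and CCACG separated by 1 base, and the core of the unfolded protein response element (UPRE) as TGACGTG, on both strands. Windows ran from 250 bases before to 50 bases after each RefSeq start site (GRCm38.p6), and all 10 genes had 1 window among the 32851 searched. An ERSE was found in 39 windows, which is 0.119% of all windows, and 4 of the 10 genes held it, namely Hspa5, Hsp90b1, Calr and Canx. ERSE was searched as a site already known to act on several of these genes, so its presence in them is no independent result. ERSE-II was found in 12 windows (0.0365%), Herpud1 among them, and the UPRE core in 661 windows (2.01%), Hspa5 among them. The separate CCAAT and CCACG parts are common, at 37.4% and 32.8% of windows, and each was present in 9 of the 10 genes. Each ERSE counts again as a CCAAT and a CCACG, and in Canx a further CCACG lies inside the spacer. The stretches with these matches are shown because they hold the sites searched for, of which ERSE occurs in 4 of the 10 genes. ERSE-II and the UPRE core occur in 1 gene each. The stretches are written along the gene's own strand and end where annotated exons begin, with the matches in capitals. A match on the opposite strand reads from CGTGG to ATTGG. The ERSE of Hspa5 lies inside the longest annotated model of that gene and is given as a separate line of 30 bases.
Hspa5, chr2:34771840-34771969, plus strand, UPRE core in capitals: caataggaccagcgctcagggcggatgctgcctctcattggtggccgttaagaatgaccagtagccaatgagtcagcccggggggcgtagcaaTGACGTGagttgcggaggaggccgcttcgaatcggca
Hspa5, chr2:34772020-34772049, plus strand, ERSE from -65 to -47: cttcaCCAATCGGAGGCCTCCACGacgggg
Hsp90b1, chr10:86705510-86705694, minus strand, ERSE forward and then reversed: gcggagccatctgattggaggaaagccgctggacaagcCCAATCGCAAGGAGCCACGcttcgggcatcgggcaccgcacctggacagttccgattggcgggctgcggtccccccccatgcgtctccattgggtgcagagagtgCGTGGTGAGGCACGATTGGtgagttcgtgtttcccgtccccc
Calr, chr8:84846935-84847181, minus strand, ERSE reversed: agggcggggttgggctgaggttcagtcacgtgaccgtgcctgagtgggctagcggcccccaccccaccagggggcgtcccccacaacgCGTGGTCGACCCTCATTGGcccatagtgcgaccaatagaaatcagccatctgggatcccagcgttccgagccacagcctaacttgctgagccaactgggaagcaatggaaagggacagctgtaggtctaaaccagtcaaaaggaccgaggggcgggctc
Canx, chr11:50325674-50325923, minus strand, ERSE forward: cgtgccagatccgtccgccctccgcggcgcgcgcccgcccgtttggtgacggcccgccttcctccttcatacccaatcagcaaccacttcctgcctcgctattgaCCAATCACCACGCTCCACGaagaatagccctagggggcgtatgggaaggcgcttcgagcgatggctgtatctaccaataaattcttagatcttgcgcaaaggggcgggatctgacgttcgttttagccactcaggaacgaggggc
Herpud1, chr8:94386179-94386428, plus strand, ERSE-II: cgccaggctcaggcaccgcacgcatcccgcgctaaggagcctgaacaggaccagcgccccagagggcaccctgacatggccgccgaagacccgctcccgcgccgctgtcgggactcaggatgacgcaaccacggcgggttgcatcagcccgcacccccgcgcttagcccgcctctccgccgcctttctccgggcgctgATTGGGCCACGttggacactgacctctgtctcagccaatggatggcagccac

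With 1 mismatch allowed in CCACG, an ERSE-like stretch was found in 0.998% of windows and in 6 of the 10 genes, Pdia4 and Herpud1 being added. Xbp1, Dnajb9, Sdf2l1 and Edem1 held no ERSE in their windows, which says only that these letters are absent there.

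**Figure D1:**
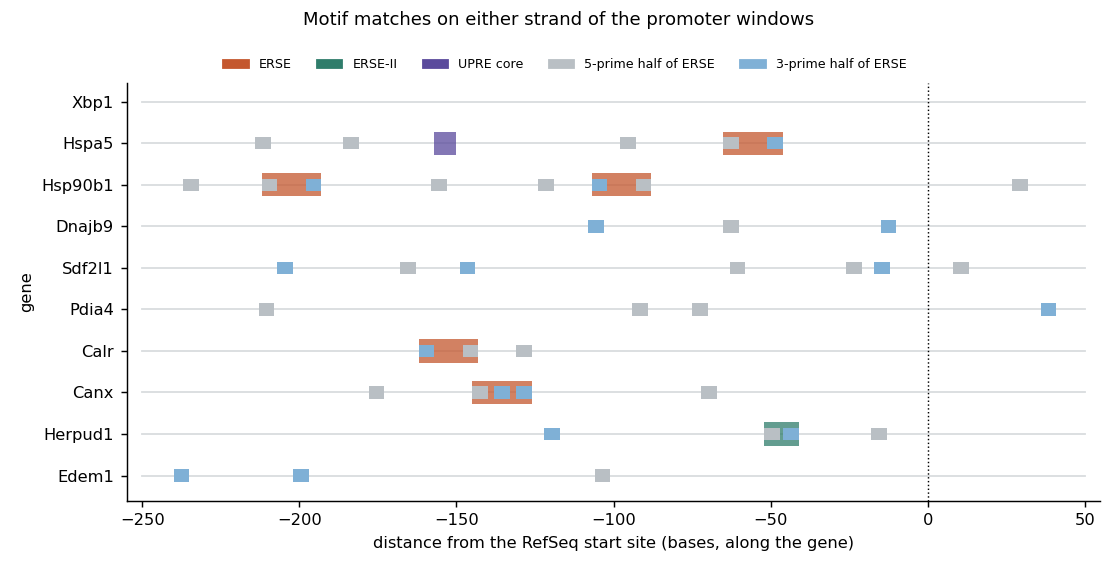
Motif matches in the promoter windows of the 10 genes, with distance from the RefSeq start site in bases on the x axis and genes on the y axis. Tall bars mark ERSE in Hspa5, Hsp90b1, Calr and Canx, ERSE-II in Herpud1 and the UPRE core in Hspa5, and short bars mark the CCAAT and CCACG parts of an ERSE wherever they occur. Hsp90b1 carries 2 ERSE matches and the Xbp1 window carries none of the motifs.

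The pools held 25271585 to 36238734 reads on genes, so that 3 reads correspond to 0.0828 to 0.119 CPM (reads relative to the pool's total, scaled to a common library size), and each of the 10 genes was far above that level in every pool. Mttp itself is no check of the deletion in liver, where the Villin promoter is not active. Its liver level was 90.4, 186 and 175 CPM in control pools 1, 2 and 3 and 145, 129 and 161 CPM in Mttp-IKO pools 1, 2 and 3, and the ranges overlapped. Mttp-IKO pool 3 stood apart in short RNA. Only 6.47% of its mRNA counts fell on genes under 1500 nt, against 10.98% to 12.01% in the other 5 pools. Hepatocyte markers marked every pool as liver, with a summed level of 55740 to 90150 CPM over 8 genes in control and 108200 to 162400 CPM in Mttp-IKO pools, and 0 of the 8 were called. Alb made up most of these sums, at 40131 to 69005 CPM in control and 84785 to 132240 CPM in Mttp-IKO pools. The list was mixed. Log2 fold changes were 0.95 for Alb, 0.98 for Apoa1, 0.76 for Serpina1a, 0.71 for Tat and 0.70 for Cps1. They were -1.06 for Fabp1, -0.55 for Ttr and 0.05 for Pck1. Fabp1 and Ttr had their lowest values, 161 and 1466 CPM, in Mttp-IKO pool 3. Among 8 markers of hepatic stellate cells 5 were called lower, with sums of 676 to 1308 CPM in control and 296 to 394 CPM in Mttp-IKO pools. Among 9 macrophage markers 2 were called lower and 1 higher. Sums over 10 plasma and B cell markers, from cells rich in ER chaperones, were 263 to 290 CPM in control and 175 to 228 CPM in Mttp-IKO pools, with none called. Most of that sum was Sdc1, which hepatocytes also express, at 212 to 253 CPM in control and 146 to 211 CPM in Mttp-IKO pools, so the sum is no measure of plasma cells. The immunoglobulin genes Igkc and Igha had log2 fold changes of -0.07 and 0.03, whereas Ighm had -1.73 (edgeR adjusted p = 0.0718). Jchain, Cd79a and Derl3, all at low levels, had -0.31, -1.53 and -0.89 (edgeR adjusted p = 0.688, 0.0804 and 0.159). Mzb1 and Tnfrsf17 were at or below 0.412 CPM throughout. Fewer cells of a type and less RNA per cell cannot be told apart in such bulk samples, and the part that these shifts play in the levels below was not tested.

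Levels between genes were compared as RPKM, that is CPM per kilobase of gene length, scaled like the CPM by TMM (a correction for differences in library composition). In control liver Calr was the most abundant of the 10 at 222 ± 19.8 RPKM (SD, n = 3), followed by Hspa5 at 174 ± 37.6 and Herpud1 at 140 ± 18.2 RPKM, and the ranges of neighbours among these genes overlapped. Pdia4 at 77.5 RPKM (range 61.4 to 91.1) and Canx at 69.9 ± 1.54 RPKM came next and also overlapped. Hsp90b1 at 55.01, Xbp1 at 39.9 and Edem1 at 28.8 RPKM each lay apart from the gene before and the gene after. Dnajb9 at 20.2 and Sdf2l1 at 16.6 RPKM were lowest and overlapped. In Mttp-IKO liver Herpud1 at 180 ± 28.0 RPKM led, with Hspa5 at 153 ± 63.5 and Calr at 153 ± 30.2 RPKM behind it, and these ranges overlapped in turn. Xbp1 at 55.04 ± 15.02 RPKM and Hsp90b1 at 51.5 ± 8.80 RPKM exchanged places, with overlapping ranges. Sdf2l1 stayed lowest at 11.3 ± 6.97 RPKM.

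Xbp1 (ENSMUSG00000020484, GRCm38 chr11:5520659-5525893, plus strand) encodes the transcription factor of the IRE1 branch. Its level was 128, 135 and 126 CPM in control pools 1, 2 and 3 and 211, 123 and 203 CPM in Mttp-IKO pools 1, 2 and 3. The control pools lay close together, Mttp-IKO pools 1 and 3 were above all of them, and Mttp-IKO pool 2 was below all of them. Mttp-IKO liver differed from control by a log2 fold change of 0.47 (SE 0.223, 95% interval -0.05 to 0.98), with an edgeR p of 0.0703 and an adjusted p of 0.259. It was 0.68 without Mttp-IKO pool 2, 0.33 without Mttp-IKO pool 1, 0.37 without Mttp-IKO pool 3 and 0.30 with scaling by total counts. Deposited counts are per gene and so add spliced and unspliced Xbp1 mRNA together. The intron that IRE1 removes is 26 bases long and lies in the coding sequence of exon 4 of transcript Xbp1-201 (GENCODE M21, chr11:5524279-5524304, plus strand). It was located by the CNG loop at both of its ends, a pattern that also occurs once in exon 1, and is shown because reads across it, which were not analysed here, are what separates the active form.
Xbp1 intron: cagcactcagactatgtgcacctctg

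Hspa5 (ENSMUSG00000026864, chr2:34771970-34776531, plus strand) encodes BiP, the main Hsp70 chaperone of the ER and the protein that holds the stress sensors inactive. Its level was 466, 723 and 645 CPM in control pools 1, 2 and 3 and 795, 395 and 425 CPM in Mttp-IKO pools 1, 2 and 3. The highest and the lowest value of all 6 pools were both in Mttp-IKO liver. Its log2 fold change was -0.18 (SE 0.310, interval -0.90 to 0.53, edgeR adjusted p = 0.764), so that folds between 0.537 and 1.45 remained within the interval. Leaving out single pools moved it from -0.58, without Mttp-IKO pool 1, to -0.002, without Mttp-IKO pool 2. Hsp90b1 (ENSMUSG00000020048, chr10:86690209-86705509, minus strand) encodes GRP94, the Hsp90 chaperone of the ER. Its level was 193, 245 and 227 CPM in control pools 1, 2 and 3 and 213, 170 and 240 CPM in Mttp-IKO pools 1, 2 and 3, and the ranges overlapped almost fully. For Hsp90b1 the log2 fold change was -0.09 (SE 0.191, interval -0.54 to 0.35, edgeR adjusted p = 0.804), and it was 0.03 without Mttp-IKO pool 2. The pseudogene 1810014B01Rik overlaps exons of Hsp90b1 on the other strand and received 47 reads or fewer in every pool, and reads shared between such models were not counted.

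Dnajb9 (ENSMUSG00000014905, chr12:44205897-44210068, minus strand) encodes ERdj4, a J-domain co-chaperone of BiP that is induced through XBP1. Its level was 28.8, 45.3 and 39.0 CPM in control pools 1, 2 and 3 and 51.6, 36.0 and 50.1 CPM in Mttp-IKO pools 1, 2 and 3. Mttp-IKO pools 1 and 3 were above all control pools and pool 2 was within their range. Its log2 fold change was 0.28 (SE 0.216, interval -0.21 to 0.78, edgeR adjusted p = 0.469), and it was 0.10 without control pool 1. Sdf2l1 (ENSMUSG00000022769, chr16:17130138-17132383, minus strand) encodes a partner of the BiP co-chaperone ERdj3. Its level was 21.5, 16.8 and 16.8 CPM in control pools 1, 2 and 3 and 21.0, 10.9 and 5.79 CPM in Mttp-IKO pools 1, 2 and 3, the widest spread of the 10 genes in Mttp-IKO liver relative to the mean. The log2 fold change of Sdf2l1 was -0.55 (SE 0.403, interval -1.48 to 0.38, edgeR adjusted p = 0.452). At 1108 nt Sdf2l1 is the shortest of the 10 genes, and its lowest value was in Mttp-IKO pool 3, the pool low in short mRNA. Without that pool the log2 fold change was -0.21, and without Mttp-IKO pool 1 it was -1.14.

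Pdia4 (ENSMUSG00000025823, chr6:47796142-47813512, minus strand) encodes ERp72, a protein disulfide isomerase. Its level was 152, 226 and 198 CPM in control pools 1, 2 and 3 and 213, 156 and 155 CPM in Mttp-IKO pools 1, 2 and 3, and control pool 1 was the lowest of all. For Pdia4 the log2 fold change was -0.14 (SE 0.214, interval -0.63 to 0.35, edgeR adjusted p = 0.740). Its highest values were in control pool 2 and Mttp-IKO pool 1, as for Hspa5.

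Calr and Canx encode calreticulin and calnexin, the soluble and the membrane-bound lectin chaperone that hold newly made glycoproteins until they are folded. Calr (ENSMUSG00000003814, chr8:84841850-84846934, minus strand) was at 573, 678 and 664 CPM in control pools 1, 2 and 3 and at 540, 378 and 402 CPM in Mttp-IKO pools 1, 2 and 3. All 3 Mttp-IKO pools were below all 3 control pools. The log2 fold change of Calr was -0.54 (SE 0.202, interval -1.001 to -0.07), with an edgeR p of 0.0285 and an adjusted p of 0.167. It lay between -0.71 and -0.44 when single pools were left out, and the adjusted p was 0.088 or more in all 16 alternatives tried. Stellate cell markers were lower in the same pools, and their part in the level of Calr was not tested. Canx (ENSMUSG00000020368, chr11:50293961-50325673, minus strand) was at 325, 323 and 336 CPM in control pools 1, 2 and 3 and at 325, 276 and 319 CPM in Mttp-IKO pools 1, 2 and 3. Canx varied least of the 10 genes in control liver relative to its mean, at 328 ± 7.21 CPM (SD, n = 3), and Mttp-IKO liver was at 307 ± 26.8 CPM (SD, n = 3). The log2 fold change of Canx was -0.10 (SE 0.160, interval -0.46 to 0.27, edgeR adjusted p = 0.756), so that folds between 0.725 and 1.21 remained within the interval.

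Herpud1 and Edem1 act in ER-associated degradation, Herpud1 as a membrane organiser of the ubiquitin ligase complex and Edem1 as a lectin that passes misfolded glycoproteins on for disposal. Herpud1 (ENSMUSG00000031770, chr8:94386438-94395377, plus strand) was at 294, 375 and 311 CPM in control pools 1, 2 and 3 and at 349, 432 and 478 CPM in Mttp-IKO pools 1, 2 and 3. Mttp-IKO pools 2 and 3 were above all control pools and pool 1 was between them. The log2 fold change of Herpud1 was 0.36 (SE 0.194, interval -0.09 to 0.81), with an edgeR p of 0.0997 and an adjusted p of 0.308. The antisense gene Gm15890 spans the start of Herpud1 without sharing exon bases, and whether strand was used in counting is not stated. Edem1 (ENSMUSG00000030104, chr6:108828641-108859356, plus strand) was at 160, 179 and 168 CPM in control pools 1, 2 and 3 and at 196, 156 and 206 CPM in Mttp-IKO pools 1, 2 and 3. Mttp-IKO pool 2 was the lowest and pools 1 and 3 the highest. For Edem1 the log2 fold change was 0.14 (SE 0.169, interval -0.25 to 0.53, edgeR adjusted p = 0.660), and it was -0.03 with scaling by total counts.

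**Figure D2:**
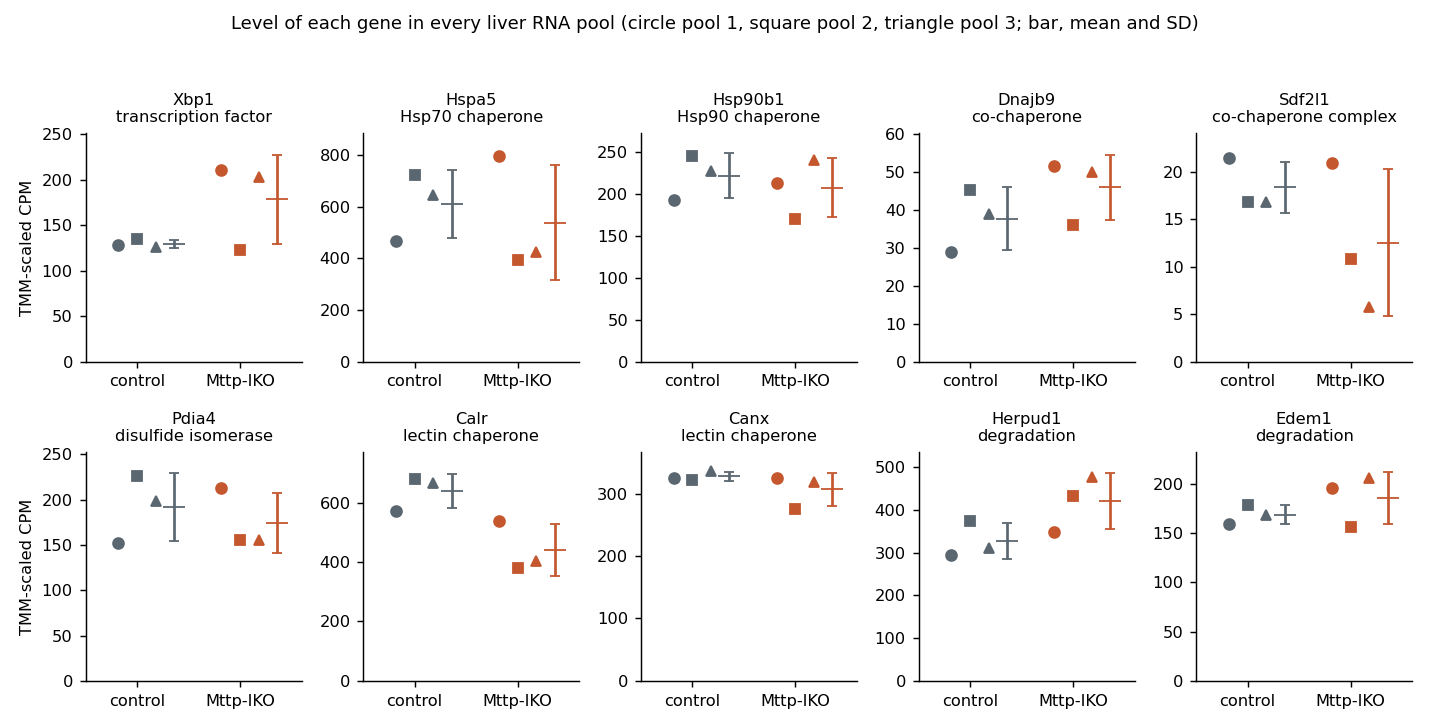
TMM-scaled CPM of each of the 10 genes in 3 control pools (grey) and 3 Mttp-IKO pools (orange), with the pool number given by the marker and the mean and SD beside the points, each y axis starting at 0. The groups do not overlap in Calr, where all Mttp-IKO pools are at or below 540 CPM and all control pools at or above 573 CPM, and overlap in the other panels.

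All 10 genes entered the test, and edgeR's quasi-likelihood test called 0 of them at an adjusted p under 0.05, with 1, Calr, at an unadjusted p under 0.05. DESeq2 and limma-voom also called 0, and so did each of the 16 alternatives. Across all 17287 genes tested 694 were called, which is 4.01%, with 159 higher (0.92%) and 535 lower (3.09%) in Mttp-IKO liver, so a share of 4.01% of 10 genes is less than 1 gene. At an unadjusted p under 0.05 the share of all genes was 23%. Calr was the only one of the 10 whose pools did not overlap, and it was lower. Of all genes tested 31% had pools that did not overlap, 16.5% lower and 14.5% higher in Mttp-IKO liver, and 1 of 10 is below that background. The log2 fold change was below 0 in 6 of the 10 genes and above 0 in 4, with a median of -0.10, beside a median of 0.0057 and quartiles of -0.38 and 0.30 over all genes tested. The median of the 10 genes was 0.01 without Mttp-IKO pool 2 and -0.27 with scaling by total counts, a setting that moved the median of all genes to -0.17.

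**Figure D3:**
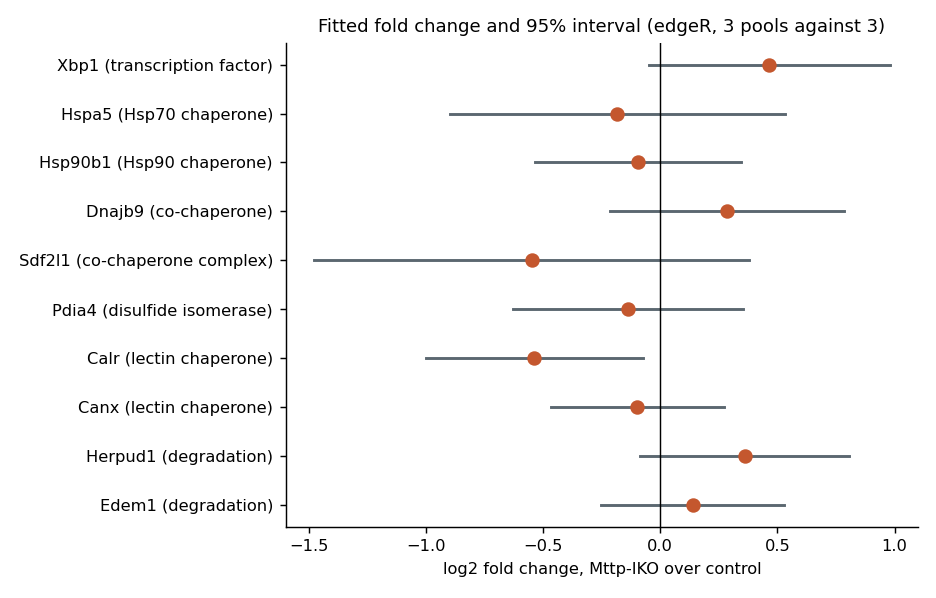
Log2 fold change of Mttp-IKO over control liver for each of the 10 genes (points) with the 95% interval of the edgeR fit (lines), ordered by role on the y axis. The interval of Calr, from -1.001 to -0.07, excludes 0 before adjustment, and the other 9 intervals include it.

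The 10 genes together summed to 2340, 2945 and 2732 CPM in control pools 1, 2 and 3 and to 2914, 2132 and 2483 CPM in Mttp-IKO pools 1, 2 and 3. The sums overlapped, at 2672 ± 307 CPM in control and 2510 ± 392 CPM in Mttp-IKO liver (SD, n = 3). Pools of the same genotype differed across many of the genes. Mttp-IKO pool 2 was below all control pools in 7 of the 10 genes, Mttp-IKO pool 3 in 4 and Mttp-IKO pool 1 in 1, and control pool 1 was below the control mean in 9. The same shares over all genes tested were not computed, so these counts have no background beside them. Hspa5 alone made up 17.1% to 27.3% of the sum, the share being highest in Mttp-IKO pool 1 and lowest in Mttp-IKO pool 3.

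**Figure D4:**
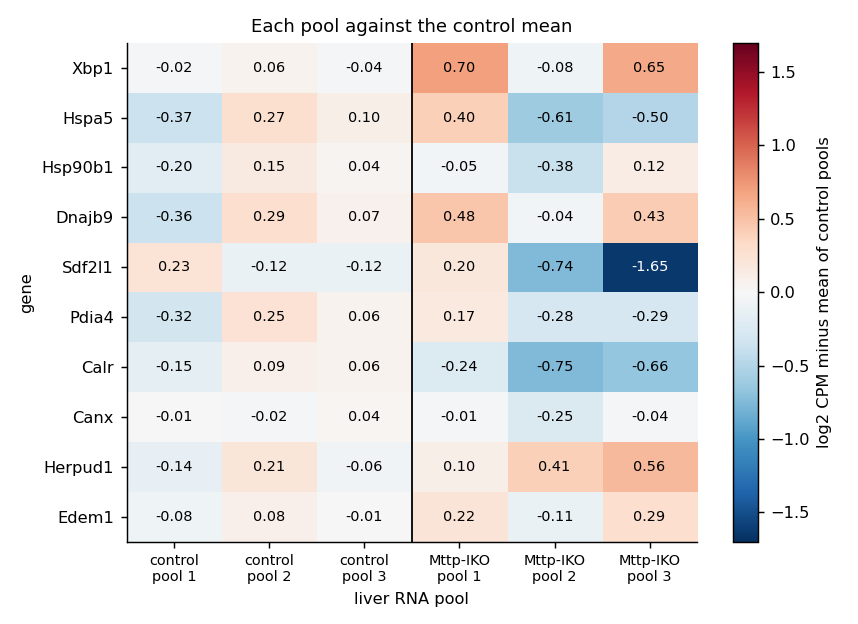
Log2 CPM of each gene (rows) in each liver pool (columns) minus the mean of the 3 control pools, with the value printed in each cell and colour from blue (lower) to red (higher). Mttp-IKO pools 1 and 3 are at 0.70 and 0.65 for Xbp1 where pool 2 is at -0.08, and pools 2 and 3 are at -0.75 and -0.66 for Calr.

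As a description over the 6 pools, 33 of the 45 pairs among the 10 genes were positively correlated, with a median Pearson r of 0.404. These pools include both genotypes, so r holds the genotype difference as well as the spread within a genotype. The genes of a pool also share its library preparation and scaling. Hspa5 and Pdia4, both lumenal folding factors, were most alike at r = 0.954 (Spearman rho 0.714). Xbp1 and Edem1 came next at r = 0.929 (rho 0.886), with Dnajb9 and Edem1 at 0.887 and Dnajb9 and Xbp1 at 0.785. Total Xbp1 mRNA and Hspa5 were at 0.221. Sdf2l1 and Herpud1 ran in opposite order, at r = -0.886.

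Among 6940 other genes with a mean log2 CPM of 4 or more, those most like the mean profile of the 10 genes over the 6 pools were Hspa13, Mettl9, Ifrd2, Siah2 and Gfpt1, with r from 0.965 to 0.987. Hspa13 encodes a microsomal Hsp70-like protein and Gfpt1 the enzyme that opens the hexosamine pathway. Hspa13 was at 22.7, 39.5 and 33.0 CPM in control and 40.2, 21.5 and 32.4 CPM in Mttp-IKO pools 1, 2 and 3. Those most like Hspa5 alone were Slc35b1, Hapln4, Pdia3, Tm9sf3 and Mrps18b, with r from 0.969 to 0.990. Slc35b1 encodes a nucleotide carrier of the ER membrane, and Pdia3 encodes ERp57, the disulfide isomerase that works with calreticulin and calnexin. Pdia3 was at 222, 268 and 247 CPM in control and 270, 189 and 211 CPM in Mttp-IKO pools 1, 2 and 3, an order close to that of Hspa5. None of these genes was called. They were picked as the highest of 6940 correlations over only 6 pools, so high values of r follow from the picking. Whether they share control with the 10 genes was not tested.

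The pathways around the 10 genes were described through 8 lists with 192 genes tested, of which 4 were called (2.08%, against 4.01% of all genes), 1 higher and 3 lower. List counts at an unadjusted p under 0.05 stand beside a share of 23% over all genes tested. No pathway gene was called without control pool 1, without control pool 3 or without Mttp-IKO pool 2, and 2 were called without Mttp-IKO pool 1. The corresponding counts over all genes were 24, 21, 0 and 55.

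Of 36 other ER chaperones, co-chaperones and disulfide enzymes 0 were called by edgeR, 3 had an unadjusted p under 0.05, and DESeq2 called 2 and limma-voom 0. The median log2 fold change was -0.01. The lowest p in the list belonged to Uggt2, a relative of the glucosyltransferase that tests glycoprotein folding, at 3.87, 3.63 and 2.90 CPM in control and 5.48, 5.62 and 7.42 CPM in the Mttp-IKO pools (log2 fold change 0.83, edgeR adjusted p = 0.0862). Fkbp14, a prolyl isomerase, and Dnajc10, the disulfide reductase ERdj5, had log2 fold changes of 0.60 and 0.42 with pools that did not overlap, without passing the test. P4hb, the partner of MTTP, was among the most abundant at 1496, 1458 and 1481 CPM in control and 2008, 1635 and 1254 CPM in Mttp-IKO pools 1, 2 and 3, and the ranges overlapped.

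Of the 28 ER-associated degradation genes listed 27 matched the files and were tested, 0 were called by edgeR, 6 had an unadjusted p under 0.05, and DESeq2 called 1 and limma-voom 0. The median was 0.23, and pools did not overlap in 9 genes that were higher and 3 that were lower. Over all genes tested the shares without overlap were 14.5% higher and 16.5% lower, and 23% had an unadjusted p under 0.05. Edem2, a mannosidase-like relative of Edem1, was at 110, 123 and 122 CPM in control and 90.1, 70.0 and 60.8 CPM in the Mttp-IKO pools (log2 fold change -0.68, edgeR adjusted p = 0.0775). Vcp, the ATPase that extracts ubiquitinated proteins from the membrane, had a log2 fold change of -0.41, and Ube2j1, a ubiquitin-conjugating enzyme of the ER, had 0.36, with adjusted p-values of 0.199 and 0.179. So Edem1 and Edem2 stood on opposite sides of 0, neither past the test, and the difference between them was not tested.

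Of 35 genes of translocation, signal peptide cleavage and N-glycosylation 0 were called by edgeR, DESeq2 or limma-voom and 1 had an unadjusted p under 0.05, with a median of -0.02. Sec11c, a signal peptidase subunit, had the lowest p there, with a log2 fold change of -0.68 and its lowest level, 5.87 CPM, in Mttp-IKO pool 3. Of 31 genes of ER to Golgi transport 0 were called by any of these tools and 1 had an unadjusted p under 0.05, with a median of 0.09. Sec24a, a cargo receptor of the COPII coat, was at 260, 278 and 281 CPM in control and 344, 333 and 528 CPM in the Mttp-IKO pools (log2 fold change 0.56, edgeR adjusted p = 0.179).

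Of 14 stress sensors and transducers 1 was called. Creb3l1, which encodes OASIS, an ATF6-like membrane factor active in matrix-producing cells, fell by 1.43 on the log2 scale (SE 0.280, edgeR adjusted p = 0.0360), from 14.2, 6.85 and 11.2 CPM in control to 4.13, 3.67 and 4.15 CPM in Mttp-IKO pools. The stellate markers Col1a1 and Col3a1 fell with it, Col1a1 from 345, 102 and 240 CPM to 20.5, 12.3 and 19.2 CPM, and their part in the level of Creb3l1 was not tested. The call on Creb3l1 was lost under 6 of 16 alternatives, limma-voom and 5 of the 6 that leave out a pool. Ern1, the gene of IRE1, was at 94.2, 115 and 97.0 CPM in control and 145, 110 and 154 CPM in Mttp-IKO pools 1, 2 and 3 (log2 fold change 0.42, edgeR adjusted p = 0.222). Atf6 and Eif2ak3, the gene of PERK, had log2 fold changes of 0.25 and 0.18 with overlapping pools and adjusted p-values of 0.582 and 0.663. The proteases Mbtps1 and Mbtps2, which release ATF6, had 0.01 and 0.07, and the liver-enriched Creb3l3 had 0.10. The tRNA ligase subunit Rtcb, which joins cut Xbp1 mRNA, had -0.14 and its partner Zbtb8os 0.11. Atf6b, Creb3, Creb3l2, Traf2 and Wfs1 had log2 fold changes of 0.01, 0.19, 0.21, -0.17 and -0.35, and none passed the test.

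Of 18 genes of the PERK-ATF4-CHOP branch 1 was called by edgeR, 2 by DESeq2 and 1 by limma-voom. The median was 0.18, and it was -0.03 without Mttp-IKO pool 1, -0.02 without Mttp-IKO pool 3 and 0.006 with total counts. Ddit4, an inhibitor of mTORC1 signalling that ATF4 and other factors induce, rose by 1.14 on the log2 scale (SE 0.217, edgeR adjusted p = 0.0342), from 50.8, 29.9 and 36.4 CPM to 95.6, 87.2 and 75.5 CPM. That call was lost under 6 of 16 alternatives, scaling by total counts and 5 of the 6 that leave out a pool. Atf3 and Trib3, both linked to ATF4, stood the other way without passing the test. So did Ddit3, the gene of CHOP, at a log2 fold change of -0.64, with all Mttp-IKO pools below all control pools (edgeR adjusted p = 0.299). Atf4 itself had 0.35 with overlapping pools (edgeR adjusted p = 0.484). In the list 8 of the 18 log2 fold changes were below 0. The level of Atf3 was 30.4, 21.7 and 30.5 CPM in control and 18.1, 8.44 and 15.4 CPM in Mttp-IKO pools, and that of Trib3 was 34.3, 37.0 and 40.9 CPM in control and 31.3, 25.5 and 21.7 CPM in Mttp-IKO pools, with adjusted p-values of 0.0983 and 0.135.

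Of 20 cytosolic and mitochondrial heat shock genes 2 were called by edgeR, 3 by DESeq2 and 1 by limma-voom, with a median of -0.18. The small heat shock genes Hspb1 and Cryab fell by 1.95 (SE 0.343, edgeR adjusted p = 0.0292) and by 2.18 (SE 0.442, adjusted p = 0.0403). Hspb1 went from 44.4, 33.0 and 24.4 CPM to 13.3, 6.89 and 6.12 CPM, and Cryab from 8.85, 17.4 and 4.998 CPM to 2.29, 2.74 and 1.85 CPM. Cryab is also a muscle gene. Its highest value was in control pool 2, where the summed level of 6 muscle markers was 573 CPM. That sum was 68.6 CPM in control pool 1 and 0.461 to 1.03 CPM in the remaining pools. Without control pool 2 Cryab fell by 1.61, and 2 genes of the list were called. The call on Cryab was lost under 6 of 16 alternatives and that on Hspb1 under 3. The constitutive Hspa8 and Hsp90ab1 had log2 fold changes of 0.24 and -0.30 with overlapping pools.

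Of 11 lipid synthesis genes linked to XBP1 in liver 0 were called by edgeR, 3 by DESeq2 and 0 by limma-voom. An edgeR unadjusted p under 0.05 was found for 7 of them, against 23% of all genes tested. The median was 0.54, the highest of the 8 lists, and 4 of the 11 log2 fold changes were below 0. Chka, with the lowest p, was at 77.5, 47.6 and 51.2 CPM in control and 181, 92.7 and 271 CPM in the Mttp-IKO pools. Its log2 fold change was 1.63 (edgeR adjusted p = 0.0569). Dgat2 had a log2 fold change of -0.07 with overlapping pools (edgeR adjusted p = 0.847). Fasn, the fatty acid synthase, was at 277, 666 and 428 CPM in control and 1111, 1928 and 952 CPM in Mttp-IKO pools 1, 2 and 3 (log2 fold change 1.54, edgeR adjusted p = 0.0673). Scd1, the stearoyl-CoA desaturase, was at 513, 286 and 227 CPM in control and 813, 915 and 4165 CPM in the Mttp-IKO pools (log2 fold change 2.52, adjusted p = 0.0761), and its log2 fold change was 1.34 without Mttp-IKO pool 3. Srebf1, a regulator of that pathway, stood lower in all Mttp-IKO pools at a log2 fold change of -0.47 (adjusted p = 0.192). The study reports increased Scd1 and Fasn mRNA in Mttp-IKO liver on this diet. What part XBP1 plays in the levels of this list was not tested.

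**Figure D5:**
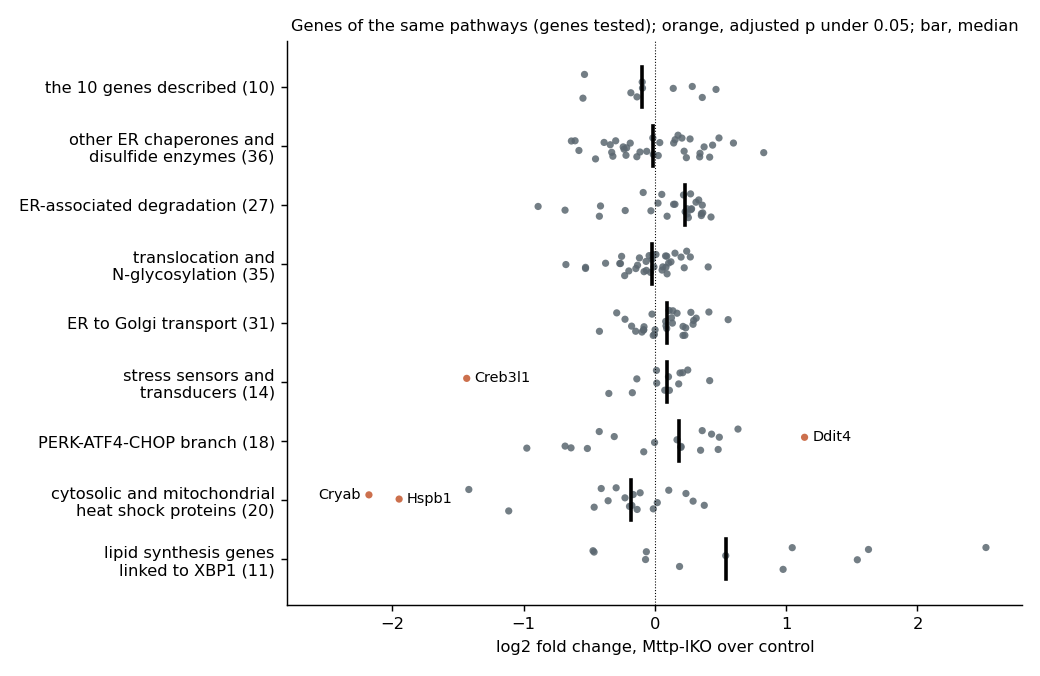
Log2 fold change of Mttp-IKO over control liver for each gene tested in the 10 genes described and in 8 pathway lists (rows, with the number of genes tested), with the median of each list as a bar and genes with an edgeR adjusted p under 0.05 in orange. The 4 named points, Creb3l1, Ddit4, Hspb1 and Cryab, are the genes called, and the median of the lipid list lies furthest from 0, at 0.54.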

How the data were processed

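The authors deposited, for each of 6 liver RNA pools, read counts per gene (uniquely aligned, unambiguous reads, STAR 2.5.1a and featureCounts 1.4.6-p5 on Ensembl GRCm38, after depletion of ribosomal RNA). They also deposited CPM and RPKM computed from those counts. The strand setting is not given in the sources used here. Pools were grouped by the genotype in their titles. The 10 genes, the pathway and marker lists and the promoter motifs were chosen with earlier results of these data known.

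From the counts, 276 repeated lines were dropped, genes were kept by filterByExpr of edgeR 4.0.16 (minimum count 10, minimum total 15), which left 17287, and counts were scaled by TMM. Genotypes were compared by edgeR's quasi-likelihood test (R 4.3.3, two-sided) with Benjamini-Hochberg adjustment over all genes tested and a threshold of 0.05. Named genes were the 10 genes, all stress sensors and transducers, up to 4 genes per other list with the lowest p and 2 with the highest RPKM, and the 5 genes most correlated with the 10 or with Hspa5. Col1a1, Col3a1, Alb, Apoa1, Serpina1a, Tat, Cps1, Fabp1, Ttr and Pck1 were named after their values were seen, as markers. So were Sdc1, Igkc, Igha, Ighm, Jchain, Cd79a, Mzb1 and Tnfrsf17. Atf4 and Ddit3 were also named after their values were seen, because their list bears their names. The smallest two-sided p of an exact permutation at this size is 0.1. Alternatives covered scaling, DESeq2 1.42.0, limma 3.58.1 (voom), filters, a length trend, the replicate number as a block, and leaving out each pool. The fit was tested on simulated counts. It called 84 of 95 genes with a true log2 change of 2 in either direction, and 46 of 99 with a change of 1. Of 16697 unchanged genes it called 5. Changes as small as those fitted for the 10 genes were not simulated. Floors of 3 reads cover counting error only. Nothing states that pools were extracted apart, so p-values measure the spread between these pools.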

Additional observations from a re-analysis of the deposited data

How the results depend on the processing

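None of the 10 genes was called under any of the 16 alternatives, and 8 of them kept the sign of their fold change in all 16. Hsp90b1 changed to 0.03 without Mttp-IKO pool 2 and Edem1 to -0.03 with total counts. Over all genes the calls numbered 1995 with DESeq2 (657 higher and 1338 lower) and 428 with limma-voom, against 694 with edgeR (159 higher and 535 lower), and leaving out 1 pool gave 0 to 892. They split into 112 higher and 907 lower with total counts and into 353 and 508 with the length trend removed, settings that moved the median log2 fold change of all genes to -0.17 and 0.12. Of the pathway list genes 12 were called with DESeq2, 2 with limma-voom, 7 when all genes with a read were kept and 7 with the replicate block, against 4 with edgeR, and 0 to 5 when 1 pool was left out. The causes were not tested, beyond the fewer pools in the last. The titles number the pools 1 to 3 in both genotypes. Deviations of same-numbered pools correlated at 0.139, 0.112 and 0.007, and those of differently numbered pools at -0.125 to 0.021. These values do not settle whether the numbers mark pairs. The main fit took no pairs, and the replicate block was an alternative. With the block 592 genes and 0 of the 10 were called. Sdf2l1, at 5.79 to 21.5 CPM, lay far above the level of 3 reads in every pool. Its log2 fold change was -0.42 with the length trend removed and -0.21 without Mttp-IKO pool 3, against -0.55 in the main fit. The cause of its spread was not tested.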
